A study of Mus musculus with 6 samples.

Results

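Transcript levels of 6 genes of protein folding and of the response to misfolded protein were compared in mouse embryos that had been activated without sperm by either of 2 agents. The genes are Hspa8, Hspa4, Hspb1, Dnajb6, Dnajb11 and Eif2ak3. A probe was taken when the platform annotation gave it exactly 1 gene symbol and that symbol was 1 of these 6, which gave 16 of 22132 probes on the array and 6 of 4797 genes named this way. Hspa8 had 6 such probes, Dnajb6 had 4, Hspa4 and Hspb1 had 2 each, and Dnajb11 and Eif2ak3 had 1 each. A further 27 probes carry a symbol of these genes together with that of another gene and were not used.

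Mouse eggs at the second meiotic metaphase received cycloheximide in 1 group and strontium chloride in the other, with cytochalasin D in both, and the parthenogenetic embryos were collected after 60 h in KSOM medium. Each group held 3 arrays, and each array set embryo mRNA equivalent to 25 embryos, amplified in 2 rounds and labelled with Cy3, against a commercial pool of mouse reference RNA that carried Cy5 after 1 round. The labels give neither the strain and age of the mice nor whether arrays stem from separate cultures, so p-values measure the spread between these arrays alone, and that spread may be technical. Cycloheximide blocks protein synthesis, strontium makes the egg release calcium repeatedly, and the title of the series asks whether the missing calcium signal alters later gene expression.

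Cells answer unfolded protein through linked systems. In the cytosol, chaperones of the Hsp70 family bind exposed stretches of a protein, J-domain proteins deliver clients to them and nucleotide exchange factors release them, while small heat shock proteins hold unfolded clients without using ATP. In the endoplasmic reticulum, the Hsp70 protein BiP does this work, and unfolded protein there switches on sensors, among them the kinase PERK, which slows translation. Hsp70 genes are known to be among the first that the mouse embryo transcribes from its own genome.

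A level is the log2 ratio of embryo to reference RNA, so a level of 1 means that the embryo signal was 2-fold that of the reference. Which channel is the numerator is not stated in the table, and embryo over reference was taken as likely from the dyes. If it were the opposite, every sign of a level and of a difference would turn. With that direction, the median of 6 preimplantation embryo genes lay between 2.38 and 2.78 on the 6 arrays, and that of the fibroblast genes Col1a1 and Sparc between -6.10 and -4.79. Of the cumulus cell markers only Cyp11a1 had a probe with 1 symbol. One of its probes was unset on 4 arrays, all those of cycloheximide among them, and read -2.988 and -2.275 on strontium arrays 1 and 2. The other lay between 0.03 and 1.14. A part of such cells in the results was not tested, and in pooled embryos fewer cells of a type and less RNA per cell cannot be told apart. Array 3 of each group had the widest spread of log2 ratios, with interquartile ranges of 1.63 and 1.62 against 1.14 to 1.43 on the others.

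No probe of the 6 genes passed the test between the groups. By limma with Benjamini-Hochberg adjustment over 21441 probes, 0 of the 15 tested probes were higher and 0 lower after cycloheximide at an adjusted p of 0.05, against 0% of all tested probes in either direction. The lowest adjusted p was 0.661 among the 15 and 0.347 among all probes. In simulated arrays, only 1% of true 2-fold differences passed this threshold, and 50% of true log2 differences of 2. The simulation planted 100 differences of each size among 21441 probes, with noise drawn independently for each array. These shares hold for that setting alone. The absence of calls, here and in the gene lists below, therefore does not show that levels were equal. At the level of an unadjusted p under 0.05 stood 4 probes, all higher after cycloheximide (Hspb1, Hspa4, Eif2ak3 and Dnajb11, 1 probe each), where 6.09% of all tested probes reached that level, 3.79% higher and 2.29% lower. These genes were picked with earlier results of these data known, so the count is a description. The groups separated without overlap on 3 probes that were higher and 1 that was lower, where 5.87% and 6.10% of all probes measured on every array did so, or 12.0% in either direction. The median difference over the 15 probes was -0.07, against -0.05 over all tested probes, and 7 of the 15 lay above 0, where 43.4% of all tested probes did.

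**Figure D1:**
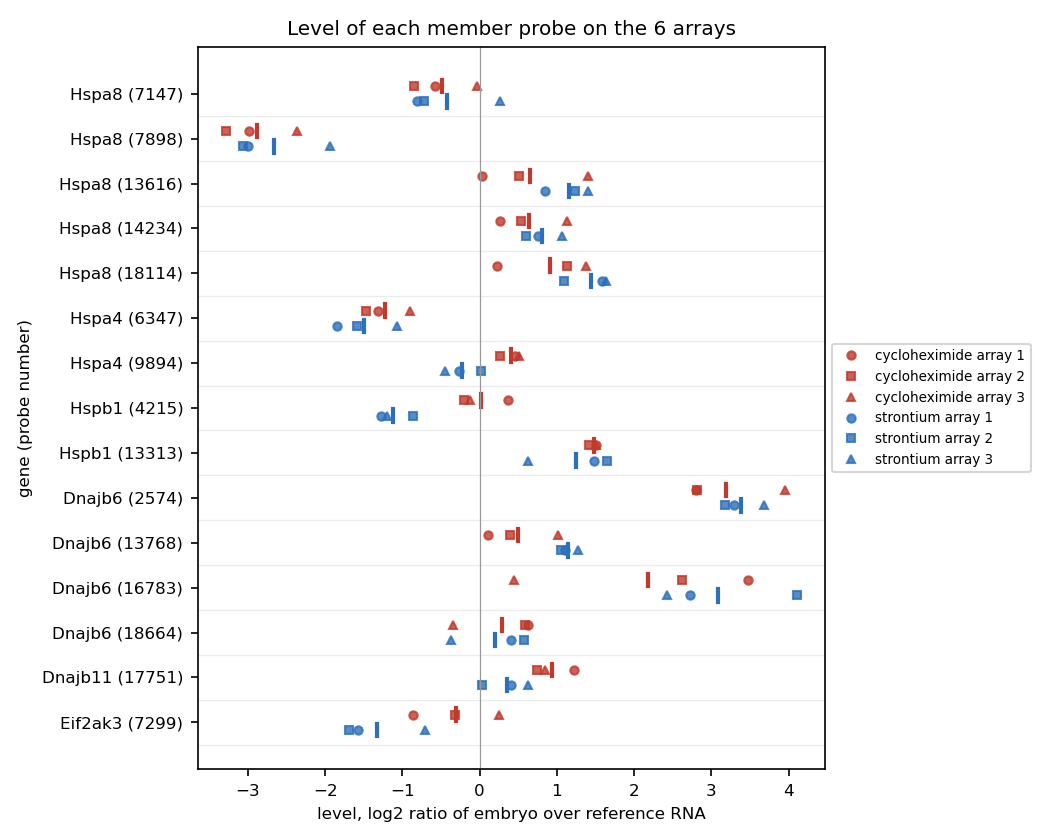
Level of each of the 15 tested probes as log2 ratio of embryo over reference RNA (x axis), a row per gene and probe number; red marks are the 3 cycloheximide arrays, blue marks the 3 strontium arrays, shapes give the array number and vertical ticks the group means. For Hspb1 probe 4215 all red marks (-0.20 to 0.37) lie right of all blue marks (-1.28 to -0.87), while for Hspa8 the colours mix; levels of different probes are not on a common scale.

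The cytosolic Hsp70 protein Hspa8, which is made without stress and also strips clathrin from vesicles, gave no probe whose groups separated. Probe 7147 read -0.57, -0.85 and -0.03 on the cycloheximide arrays and -0.81, -0.72 and 0.27 on the strontium arrays. Array 3 was the highest of its group on both sides, and the groups overlapped. The difference (cycloheximide minus strontium) was -0.07 with a 95% interval from -0.97 to 0.84. Probe 7898, which the annotation ties to the same transcripts, read -2.99, -3.28 and -2.37 after cycloheximide and -2.99, -3.07 and -1.93 after strontium. Its arrays stood in much the same order within the groups, again with array 3 highest, and its difference was -0.21 (SE 0.40).

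Probes 13616 and 14234 of Hspa8 share their only annotated transcript. On probe 13616 the cycloheximide arrays read 0.03, 0.51 and 1.41 and the strontium arrays 0.85, 1.24 and 1.40. Array 1 was the lowest after cycloheximide, the groups overlapped, and the means were 0.65 and 1.16. The difference of -0.51 had an interval from -1.44 to 0.42 and was -0.20 without that array. On probe 14234 the readings were 0.26, 0.54 and 1.14 against 0.75, 0.60 and 1.06, a difference of -0.16 (SE 0.28). Probe 18114 read 0.22, 1.13 and 1.38 against 1.58, 1.09 and 1.64, and differed by -0.53 (SE 0.35). All 5 tested probes of Hspa8 thus had a difference below 0, and each 95% interval included 0; the limma adjusted p ran from 0.864 to 0.977. The sixth, probe 993, was unset on 5 arrays, read 0.55 on strontium array 1 and was not tested.

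Hspa4, a relative of the Hsp70 proteins that acts as their nucleotide exchange factor, had a probe on which the groups parted. Probe 9894 read 0.46, 0.26 and 0.51 after cycloheximide and -0.27, 0.01 and -0.45 after strontium. Every cycloheximide array lay above every strontium array, with a gap of 0.25 between the nearest. The means were 0.41 ± 0.13 and -0.23 ± 0.23 (SD, n = 3 each), and the difference of 0.64 (SE 0.19), or 1.56-fold, had a 95% interval from 0.17 to 1.12. It did not pass over all probes (limma adjusted p = 0.788). The other probe, 6347, read -1.32, -1.47 and -0.91 against -1.85, -1.58 and -1.08, so its groups overlapped, and it differed by 0.27 (SE 0.27). Both probes of Hspa4 were thus on the higher side, with intervals that overlap widely. The annotation ties probe 9894 to 1 transcript record and probe 6347 to 8, with that record among them.

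Hspb1 encodes a small heat shock protein that holds unfolded clients and binds to the actin skeleton. The bases before its transcription start are shown because they hold 2 copies of GAANNTTC, a pair of the GAA units that make up the heat shock element to which heat shock factors bind. Those of Dnajb6, whose probes lay mostly on the opposite side, are shown with them. Both are from RefSeq (GRCm38.p6), 5′ to 3′ on the plus strand, at chr5:135887669-135887918 and chr5:29735648-29735897, and capitals mark GAANNTTC and TTCNNGAA.
Hspb1: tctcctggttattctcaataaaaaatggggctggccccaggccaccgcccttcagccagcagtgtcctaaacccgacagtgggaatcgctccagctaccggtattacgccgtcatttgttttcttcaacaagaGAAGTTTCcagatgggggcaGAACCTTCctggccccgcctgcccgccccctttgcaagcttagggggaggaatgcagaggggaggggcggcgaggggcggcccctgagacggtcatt
Dnajb6: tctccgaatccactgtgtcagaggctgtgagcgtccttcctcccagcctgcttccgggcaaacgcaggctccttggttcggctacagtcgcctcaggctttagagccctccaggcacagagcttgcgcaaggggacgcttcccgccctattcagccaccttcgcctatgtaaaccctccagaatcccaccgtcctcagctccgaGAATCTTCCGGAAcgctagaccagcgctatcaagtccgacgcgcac
In Hspb1 the matches begin 117 and 97 bases before the start. In Dnajb6 a GAANNTTC and a TTCNNGAA overlap by the letters TTC. Each motif reads the same on both strands. Of 32851 RefSeq promoters searched over the same 250 bases, 6.69% hold GAANNTTC, 0.228% hold at least 2 copies and 7.17% hold TTCNNGAA. A match in these letters is a description and not a binding site.

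Probe 4215 of Hspb1 had the widest gap between the groups among the 15 probes. It read 0.37, -0.20 and -0.12 after cycloheximide and -1.28, -0.87 and -1.20 after strontium. All cycloheximide arrays lay near the reference level, and all strontium arrays lay below it, with 0.67 between the nearest arrays of the groups. The means were 0.02 ± 0.31 and -1.12 ± 0.22 (SD, n = 3 each). The difference was 1.13 (SE 0.23), or 2.19-fold, with an interval from 0.57 to 1.70, and the limma adjusted p was 0.661. Of all tested probes, 0.378% had a smaller p. Probe 4215 lies in a run of 204 tested probes with neighbouring numbers, in which 14 probes were higher and 6 lower at an unadjusted p under 0.05, with a run median difference of 0.09, and with run medians subtracted from every array its difference was 1.02.

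The other probe of Hspb1, 13313, did not show that gap. It read 1.50, 1.42 and 1.51 after cycloheximide and 1.48, 1.65 and 0.63 after strontium. The cycloheximide arrays were nearly equal, strontium arrays 1 and 2 lay beside them, and strontium array 3 alone was low. The difference was 0.22 (SE 0.30, limma adjusted p = 0.895), and it was -0.09 without that array. Whether the probes of Hspb1 differ from each other in this was not tested. The annotation ties probe 4215 to 10 transcript records and probe 13313 to 1 of these.

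**Figure D2:**
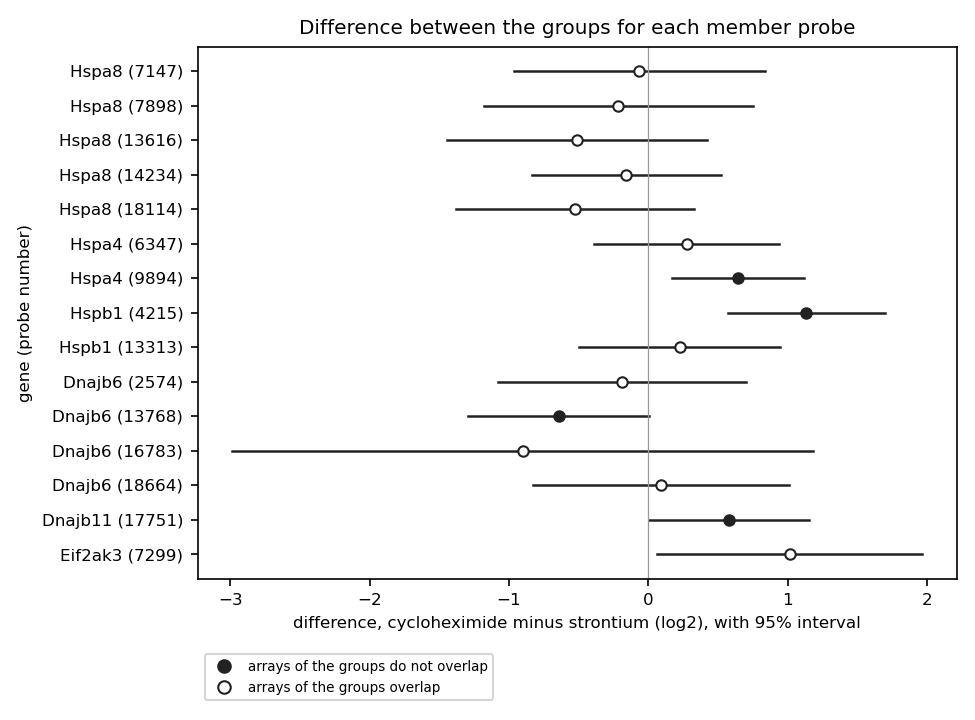
Difference between the groups (cycloheximide minus strontium, log2, x axis) with its 95% limma interval for each of the 15 tested probes; filled points are probes whose arrays do not overlap between groups. The intervals of Hspb1 probe 4215 (0.57 to 1.70), Hspa4 probe 9894, Dnajb11 and Eif2ak3 lie above 0 before adjustment, and all 5 Hspa8 points lie left of 0 with intervals across it.

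Dnajb6 encodes a J-domain co-chaperone of Hsp70 that keeps aggregation-prone proteins soluble and that the mouse needs to build its placenta. Probe 13768 was the only 1 of the 15 whose groups separated with strontium higher. It read 0.11, 0.39 and 1.01 after cycloheximide and 1.11, 1.06 and 1.28 after strontium. The strontium arrays lay close together (1.15 ± 0.12, SD, n = 3) and the cycloheximide arrays were spread below them (0.50 ± 0.46, SD, n = 3), with only 0.05 between the nearest. The difference was -0.64 (SE 0.27) with an interval from -1.29 to 0.005, and the limma adjusted p was 0.815. Probe 13768 is tied by the annotation to 1 transcript record, which is also the only record of probe 16783.

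The other probes of Dnajb6 overlapped between the groups. Probe 2574 read 2.80, 2.82 and 3.96 against 3.29, 3.18 and 3.68, and differed by -0.19 (SE 0.37). Every one of its readings was above the reference, so its signal was stronger in embryos of both groups than in the reference RNA. Probe 16783 read 3.48, 2.62 and 0.44 against 2.72, 4.11 and 2.42. Its pooled SD of 1.28 was larger than that of 96.6% of tested probes, and cycloheximide array 3 alone set most of the difference of -0.90, which was -0.03 without that array. Probe 18664 read 0.63, 0.58 and -0.34 against 0.41, 0.57 and -0.38, with array 3 low in both groups, and it differed by 0.09 (SE 0.38). Array 3 was thus high on some probes of Dnajb6 and low on others, in both groups.

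The remaining genes act in the endoplasmic reticulum. Dnajb11 encodes ERdj3, a J-domain partner of BiP in the lumen, and Eif2ak3 encodes PERK, the kinase that spans its membrane. Endoplasmic reticulum stress elements pair a CCAAT box with CCACG, and so the bases before both starts are shown with CCAAT, or its reverse complement ATTGG, in capitals. They are from RefSeq (GRCm38.p6), 5′ to 3′ on the plus strand, at chr16:22857595-22857844 and chr6:70844265-70844483.
Dnajb11: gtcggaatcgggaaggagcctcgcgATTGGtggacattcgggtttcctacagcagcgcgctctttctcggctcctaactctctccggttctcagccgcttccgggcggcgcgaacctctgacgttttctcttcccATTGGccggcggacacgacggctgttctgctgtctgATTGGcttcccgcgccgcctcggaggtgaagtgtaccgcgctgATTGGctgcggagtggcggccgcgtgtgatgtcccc
Eif2ak3: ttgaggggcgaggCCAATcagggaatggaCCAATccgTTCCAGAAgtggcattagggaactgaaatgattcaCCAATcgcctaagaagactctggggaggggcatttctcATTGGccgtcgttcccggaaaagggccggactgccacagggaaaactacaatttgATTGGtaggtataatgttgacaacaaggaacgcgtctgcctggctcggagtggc
Dnajb11 holds 4 CCAAT boxes in the 250 bases before its start. Eif2ak3 holds 6 over the same length, 5 of them in the stretch printed, which stops where the annotated gene begins, and its capitals also mark 1 TTCNNGAA. Of all promoters 33.8% hold at least 1 CCAAT, 0.840% at least 4 and 0.0578% at least 6. The whole element, CCAAT with CCACG 9 bases after it, was found on either strand in 0.113% of promoters, and its second form, ATTGG with CCACG 1 base after it, in 0.0304%. Neither was in this window of Dnajb11, Eif2ak3, Hspb1, Dnajb6 or Hspa4, which says only that these letters are not there. The promoter of Hspa4 held 0 copies of each motif searched.

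Dnajb11 read 1.22, 0.74 and 0.85 after cycloheximide and 0.41, 0.04 and 0.63 after strontium on its single probe, 17751. The groups did not overlap, though array 3 of strontium came within 0.12 of the lowest cycloheximide array. All 6 readings were above the reference. The means were 0.94 ± 0.25 and 0.36 ± 0.30 (SD, n = 3 each), and the difference of 0.58 (SE 0.23), or 1.49-fold, had an interval from 0.01 to 1.15 and a limma adjusted p of 0.815.

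Eif2ak3 read -0.86, -0.32 and 0.25 after cycloheximide and -1.57, -1.69 and -0.71 after strontium on its single probe, 7299. In each group array 3 was the highest, and the highest strontium array lay above the lowest cycloheximide array, so the groups overlapped. The means were -0.31 ± 0.56 and -1.32 ± 0.54 (SD, n = 3 each). The difference of 1.01 (SE 0.39), or 2.02-fold, was the second largest of the 15 in size, with an interval from 0.06 to 1.97 and a limma adjusted p of 0.814. It was 0.73 without cycloheximide array 3 and 1.32 without strontium array 3.

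**Figure D3:**
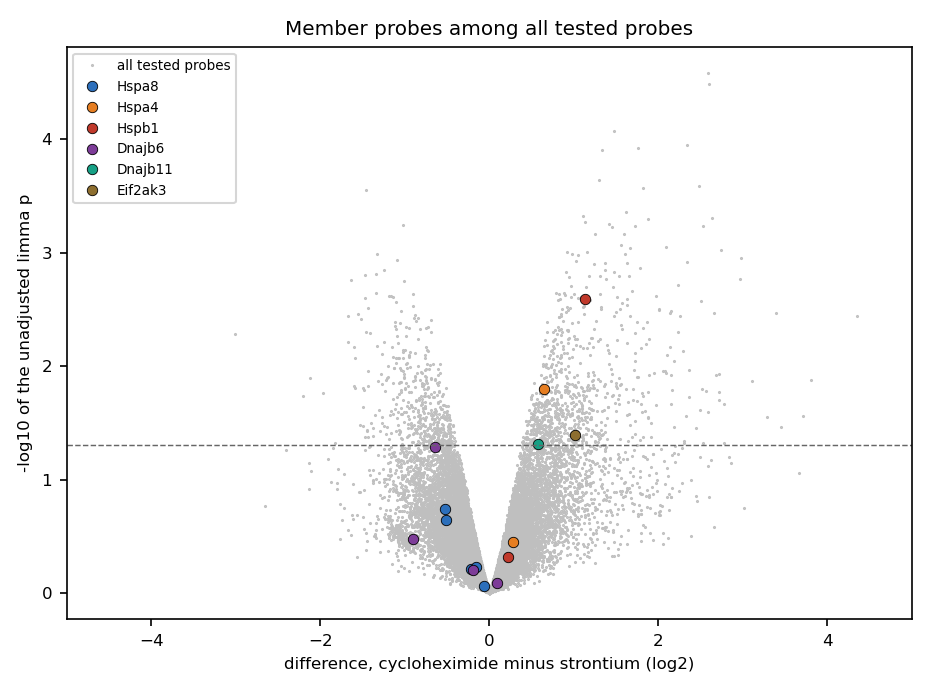
Difference between the groups (log2, x axis) against -log10 of the unadjusted limma p (y axis) for 21441 tested probes (grey) with the 15 member probes in colour; the dashed line is an unadjusted p of 0.05. The 4 member points above the line lie on the right, with Hspb1 probe 4215 the highest, and many grey points lie higher than it.

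With the probes of a gene averaged on each array, the differences were 0.68 (SE 0.22) for Hspb1, 0.46 (SE 0.18) for Hspa4, -0.33 (SE 0.31) for Hspa8 and -0.41 (SE 0.22) for Dnajb6. The limma adjusted p over 4677 genes lay between 0.728 and 0.873 for the 6 genes. The averages hide unequal probes, since those of Dnajb6 ran from -0.90 to 0.09 and those of Hspb1 from 0.22 to 1.13. A typical tested probe had a 95% interval of 0.70 to each side of its difference, or 1.63-fold, as the median over probes, and probes with a smaller spread had narrower intervals.

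Array 3 stood out in both groups on these genes, and not on these alone. Over 21067 probes the deviations of array 3 from its group mean correlated between the groups at 0.513. How often each array was the highest over all probes was not counted, so the counts that follow are a description. Array 3 was the highest of its group on 11 of 15 probes after cycloheximide and on 10 of 15 after strontium. Cycloheximide array 2 and strontium array 1 were the highest of their group on 0 of 15. The part of single arrays in the differences was seen by leaving out each array in turn. Hspb1 probe 4215 then differed by 0.96 to 1.26, Hspa4 probe 9894 by 0.54 to 0.77, Dnajb11 by 0.42 to 0.71 and Eif2ak3 by 0.73 to 1.32. For Hspa8 the sign of probes 7147, 7898 and 14234 turned in at least 1 of these fits, and that of probes 13616 (-0.89 to -0.20) and 18114 (-0.76 to -0.18) did not. The count of member probes at an unadjusted p under 0.05 was 2 of 15 without any 1 of arrays 1 and 2 of either group. It was 5 of 15 without cycloheximide array 3. Over all tested probes that count was 722 of 21342 without cycloheximide array 1 and 787 of 21220 without cycloheximide array 2. It was 783 of 21308 without strontium array 1 and 1350 of 21322 without strontium array 2. Without cycloheximide array 3 it was 4189 of 21233, so the count did not move for these genes alone.

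**Figure D4:**
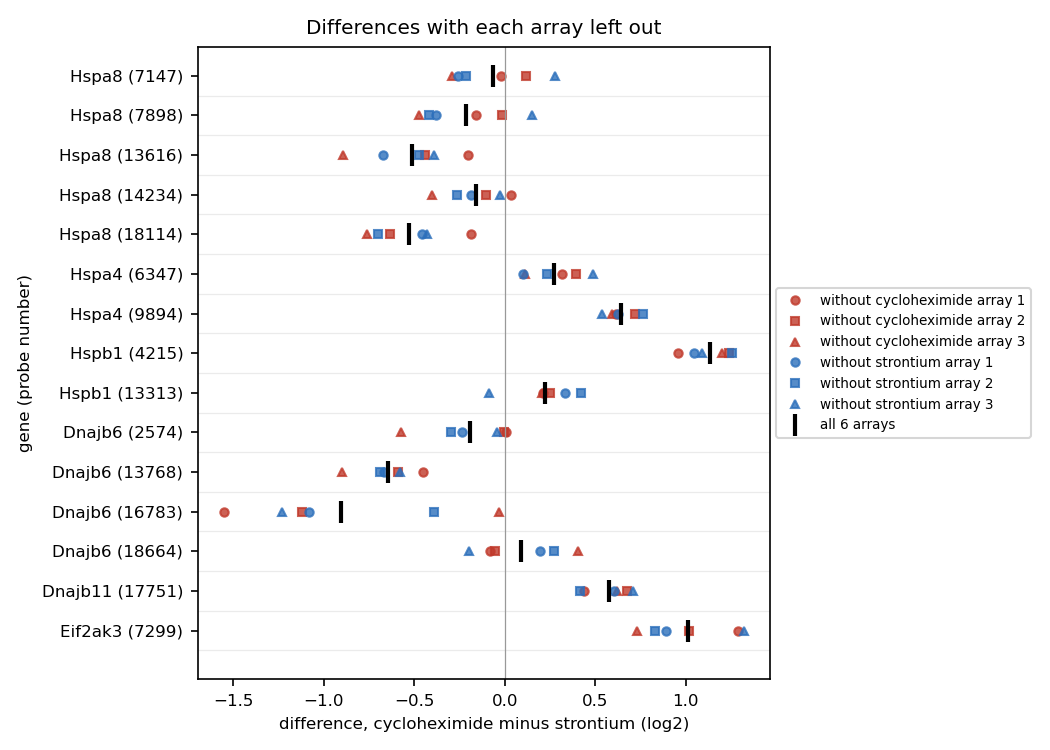
Difference between the groups (log2, x axis) for each member probe with all 6 arrays (black bar) and with each array left out (marks: colour gives the group, shape the array number). Hspb1 probe 4215 stays between 0.96 and 1.26, while Dnajb6 probe 16783 runs from -1.55 to -0.03.

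Other genes of the same systems gave no call. Of 63 genes on a list of heat shock proteins and cytosolic and mitochondrial chaperones, 24 had a probe with 1 symbol, and 38 probes were tested. By limma 0 were higher and 0 lower at the adjusted threshold. Before adjustment 3 were higher and 0 lower at p under 0.05, or 7.89%. The median difference was -0.06. Without the genes described above, 1 of 25 probes was at that level, that of Dnajc5, a J-domain protein of secretory vesicles, named after its value was seen, with a difference of 0.91 (SE 0.21). Of 57 genes on a list of endoplasmic reticulum folding and stress signalling, 22 had such a probe. Of their 24 probes, 0 were called in either direction, 3 were higher and 0 lower at an unadjusted p under 0.05, and the median difference was 0.10. Without Dnajb11 and Eif2ak3 this was 1 of 22, that of Mbtps1, the protease that cleaves Atf6, named after its value was seen, with a difference of 0.64 (SE 0.22). The shares without the members, 4.00% and 4.55%, rest on 1 probe each and are near the 6.09% of all tested probes. Because the members were chosen with earlier results known, leaving them out could by itself lower these shares.

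Among relatives named for their role, the other Hsp70 genes differed by little against their error. Hspa5, which encodes BiP, the partner of Dnajb11, read -4.96, -5.02 and -3.59 after cycloheximide and -4.82, -5.31 and -4.35 after strontium. The groups overlapped, and the difference was 0.30 (SE 0.46). Hsp90b1, the Hsp90 protein of the endoplasmic reticulum, differed by -0.24 (SE 0.37). Each had 1 probe, and its readings lay far below the reference RNA on all 6 arrays. Hspa9, the mitochondrial Hsp70, differed by 0.26 (SE 0.22). The mitochondrial chaperonin Hspd1 differed by -0.72 (SE 0.46), and its co-chaperonin Hspe1 by 0.17, 0.19 and -0.14 on 3 probes.

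The J-domain gene Dnajb1 differed by 0.12 (SE 0.18). Dnaja1 differed by -0.30, -0.44 and 0.48 on its tested probes; the last was unset on strontium array 3, and the fit left that array out. Stip1, which links Hsp70 to Hsp90, differed by -0.31 (SE 0.31), and the small heat shock protein gene Hspb8 by -0.27 (SE 0.31). Of the other kinases that phosphorylate eIF2, Eif2ak2 read -1.46, -1.52 and -1.62 after cycloheximide and -1.31, -1.38 and -1.26 after strontium. Its groups did not overlap, and the difference was -0.21 (SE 0.16). Eif2ak4 differed by -0.80 (SE 0.54) with overlapping arrays. Both were on the opposite side of 0 from Eif2ak3. The sensor Atf6 differed by 0.12 (SE 0.31), and the lectin chaperones Calr by -0.22 (SE 0.31) and Canx by -0.57 (SE 0.61). The limma adjusted p of these 18 probes lay between 0.864 and 0.959. Of 34 relatives named by role, 20 had no probe with 1 symbol, among them Atf4, Ddit3, Xbp1 and Hsf1.

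**Figure D5:**
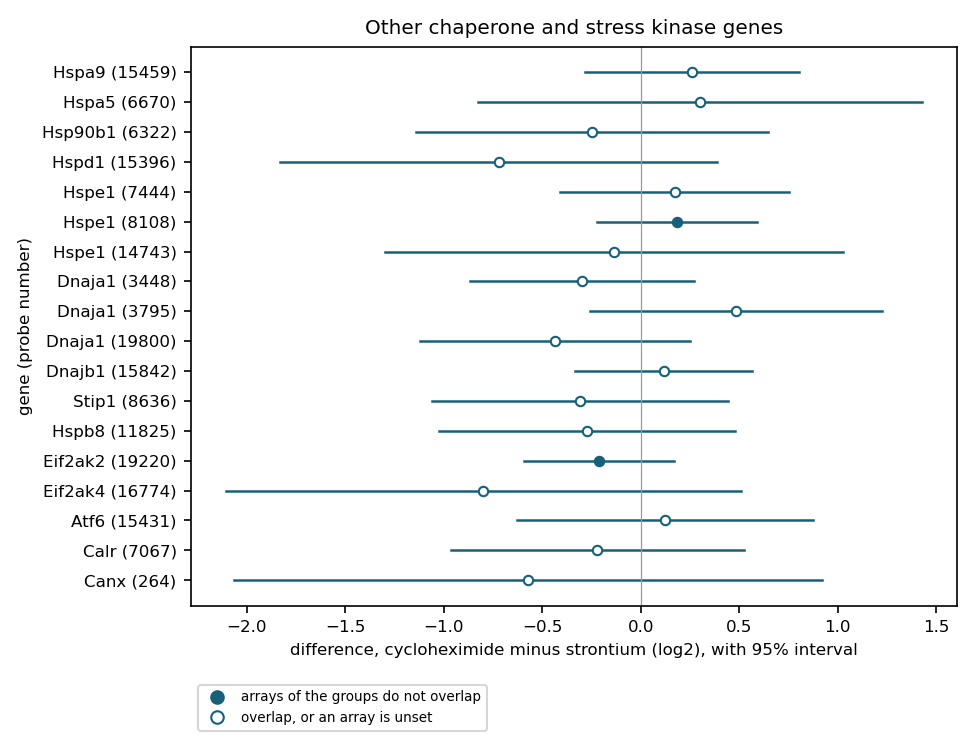
Difference between the groups (cycloheximide minus strontium, log2, x axis) with its 95% limma interval for the 18 tested probes of the relatives; filled points are probes whose arrays do not overlap between groups. All 18 intervals cross 0, and the points of Eif2ak2 (-0.21) and of Hspe1 probe 8108 (0.19) are the filled ones.

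The genes whose profile over the 6 arrays lay nearest to each member were taken by the root mean square distance of the log2 ratios, each centred on its own mean, over 5877 to 5881 probes of other genes with 1 symbol. For Hspb1 probe 4215, whose own readings lay 0.61 around their mean, they were Akap13 (distance 0.15) and Zfp954 (0.16). For Eif2ak3 they were Aff1 (0.14) and Elk4 (0.14), and for Dnajb11 they were Ube2j2 (0.12) and Dapk2 (0.13). For Hspa4 probe 6347 they were Actr3 (0.02) and Aurka (0.07), for Hspa8 probe 7147 1700034J05Rik (0.08) and Hnrnpr (0.10), and for Dnajb6 probe 2574 4933416O17Rik (0.03) and Yap1 (0.06). With 6 arrays and so many probes, near profiles are found for any probe, and the distances are a description.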

How the data were processed

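Log10 ratios of the 2 channels were deposited by the authors, in a column for each array. The submitters' processing notes name Agilent Feature Extraction; how it corrected background and dyes, and its version, is not given in the sources used. The deposited log10 values stop at -2 and 2. Values of exactly 0 (471 to 755 per array) were taken as unset and treated as missing. Multiplying by 3.32 and changing the sign gave the log2 ratio of embryo to reference, with no further normalization. No dyes were exchanged, so a dye effect stays in each level but is shared by both groups. Any bias from the 2 rounds of amplification of embryo RNA against 1 of the reference also stays in each level, and it was not tested. Spot intensities were not used, and precision is limited by the number of arrays.

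Probes with at least 2 measured arrays per group (21441 of 22132) were fitted with limma 3.58.1 in R 4.3.3 (lmFit and eBayes, cycloheximide minus strontium), with Benjamini-Hochberg adjustment over all of them and a threshold of 0.05. The fit was tested on simulated data. Names came from the platform annotation (6249 probes with 1 symbol, 9389 with several, 6494 unlisted); 6179 matched the mouse gene table (GRCm38.p6) by gene ID, and 0 symbols changed. Promoters were found for 5 of the 6 genes. Named were all 6 members, relatives listed by role, and the 2 nearest profiles per member. Members and lists were chosen with earlier results of these data known. Python 3.11.15 and matplotlib 3.10.9 prepared values and plots. Alternatives covered unset and limited values, centring, quantile scaling, position, the number of measured arrays, the replicate number, array weights, a variance trend and each array left out.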

Additional observations from a re-analysis of the deposited data

How the results depend on the processing

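The count of 0 called probes held under all 16 alternatives. The fit that kept zeros but left out probes at 0 on all 6 arrays was chosen after seeing the data. Of 253 alternative values of the 15 member probes, 0 passed the threshold (lowest adjusted p 0.121) and 11 changed sign, in 6 probes. Dnajb6 probe 18664 was at -0.025 with position medians subtracted, and the average of the Dnajb6 probes was at -0.41. The other 9 changes came from leaving out 1 array, which gave -0.29 to 0.28 for Hspa8 probe 7147, -0.47 to 0.15 for 7898 and -0.40 to 0.033 for 14234, -0.089 to 0.42 for Hspb1 probe 13313, and -0.57 to 0.007 and -0.20 to 0.40 for Dnajb6 probes 2574 and 18664. Probes at an unadjusted p under 0.05 numbered 1305 of 21441. They were 2094 of 21383 with the replicate block and 5513 of 21441 with array weights. Without 1 array they ran from 722 to 4189, with 4189 of 21233 without cycloheximide array 3. They were 722 of 21342 and 787 of 21220 without cycloheximide arrays 1 and 2. They were 783 of 21308 and 1350 of 21322 without strontium arrays 1 and 2. Member probes at that level numbered 2 to 5 without 1 array. Those of the heat shock list were 3 of 38 in the main fit. They numbered 7 with the replicate block, 7 with array weights and 2 to 8 without 1 array. The 8 came without cycloheximide array 3, where the count over all probes was also the highest of these fits. Those of the endoplasmic reticulum list were 3 of 24 in the main fit. They numbered 6 with array weights and 0 to 4 without 1 array, with 0 without strontium array 1 or 2 and 1 without cycloheximide array 2. The cause was not tested. The deviations from the group means of arrays 1, 2 and 3 correlated between groups at 0.058, 0.399 and 0.513. Cycloheximide arrays 1 and 2 both correlated best with strontium array 2 (0.474 and 0.399). The 3 deviations of a group sum to 0 on each probe, so those of array 3 enter those of arrays 1 and 2. Whether numbers 1 and 2 pair the samples therefore cannot be told by this check. Array 3 of each group correlated best with array 3 of the other. By log2 ratio, cycloheximide array 3 correlated at 0.915 with strontium array 3 and at 0.771 and 0.816 with cycloheximide arrays 1 and 2. The reason was not tested. Other scalings moved the median difference by at most 0.023. Signal over background was not analysed here.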
